A study of Drosophila melanogaster with 2 samples.

Results

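Of the 6635 peaks in the reproducible peak set of the transcription factor Broad on the fly genome (build dm6), 1354, or 20.4%, were clustered. A peak was selected on the position of its summit: at least 3 other sites of the set had to lie within 5000 bp, with summits closer than 200 bp to each other counted as 1 site. The clustered peaks held 1346 distinct sites. Chaining those within 5000 bp of each other gave 332 clusters. The other 5281 peaks of the set serve as the comparison, and 1996 of them had no other site within 5000 bp.

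The data are chromatin immunoprecipitation with sequencing (ChIP-seq) from whole Drosophila melanogaster larvae at the wandering stage of the last instar, both sexes pooled. The transgenic line stably makes the br-RJ product with GFP at the C-terminus, and the precipitation used an anti-GFP antibody. There is 1 group with 2 biological replicates and no untreated or mutant group, so every value here describes this line at this stage, and no test between conditions was possible. The measurements are those of a tagged protein in a mixture of all larval tissues, so which cells contribute a peak is not known, and depth is unknown because the lists hold no read counts.

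Broad is a zinc finger protein with a BTB domain, made from an early gene of the response to the moulting hormone ecdysone. The hormone binds its receptor, the heterodimer of EcR and Ultraspiracle, which switches on a small set of early genes, br among them, and their products then control many later genes. Broad is known for its part in the onset of metamorphosis, when larval tissues are removed and imaginal discs form the adult body. Several transcription factor sites lying close together are a common form of fly enhancers, although a peak by itself does not show that a gene is regulated.

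The sequences at 8 of the strongest summits of the named clusters are shown first, because they carry the highest signals among the named clusters at positions free of annotated exons. Each line is 121 bases of the dm6 plus strand, 5′ to 3′, centred on the summit. Capitals mark matches, on either strand, to any of 9 short motifs whose letters are given below the sequences.
ush intron, chr2L:480995-481115: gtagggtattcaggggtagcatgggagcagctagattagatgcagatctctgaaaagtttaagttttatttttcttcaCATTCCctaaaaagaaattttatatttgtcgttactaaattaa
intergenic between Cyt-c1L and eEF1gamma, chr3R:29214381-29214501: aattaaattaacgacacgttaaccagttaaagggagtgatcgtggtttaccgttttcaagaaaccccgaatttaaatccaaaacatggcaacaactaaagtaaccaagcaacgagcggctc
ph-p promoter, chrX:2137253-2137373: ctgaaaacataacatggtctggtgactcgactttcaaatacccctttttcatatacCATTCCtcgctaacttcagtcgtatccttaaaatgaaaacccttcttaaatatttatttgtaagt
CenG1A promoter, chr2L:13835398-13835518: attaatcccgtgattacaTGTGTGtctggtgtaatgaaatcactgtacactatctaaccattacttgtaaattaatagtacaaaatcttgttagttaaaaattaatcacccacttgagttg
intergenic between COX7AL2 and CG31668, chr2L:2202356-2202476: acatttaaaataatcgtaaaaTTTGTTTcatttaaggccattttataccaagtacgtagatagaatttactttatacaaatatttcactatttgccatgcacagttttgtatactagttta
Raf intron, chrX:2300654-2300774: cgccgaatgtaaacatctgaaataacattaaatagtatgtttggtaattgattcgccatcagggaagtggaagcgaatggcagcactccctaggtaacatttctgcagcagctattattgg
CG43389 promoter, chr3L:3247618-3247738: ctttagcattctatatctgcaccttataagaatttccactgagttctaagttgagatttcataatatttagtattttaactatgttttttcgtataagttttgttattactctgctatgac
Rtnl1 promoter, chr2L:4997599-4997719: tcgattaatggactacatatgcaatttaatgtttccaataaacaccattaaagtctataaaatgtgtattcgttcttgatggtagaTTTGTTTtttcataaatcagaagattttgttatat

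The GC share of these 8 windows lay between 24.8% beside CG31668 and 41.3% in Raf. The motif of Scalloped, GGAATG, stood in the windows of ush and ph-p. The run AAACAAA stood in those beside CG31668 and in Rtnl1, and the repeat CACACA in that of CenG1A. The windows of Raf, of CG43389 and of the site between Cyt-c1L and eEF1gamma held none of the 9. For all clustered peaks the same search was made within 50 bp of the summit. The mean GC share of these windows was 39.0% ± 10.2 at clustered peaks, against 37.4% ± 9.84 at other peaks (SD over 1354 and 5281 windows). The motif of the GAGA factor, which is GAGAG, stood in 14.2% of clustered windows and 12.8% of other windows. The CACACA repeat stood in 10.7% of clustered and 7.59% of other windows, with 11.0% and 7.72% at promoters and 10.6% and 7.50% away from them. The AAACAAA run stood in 9.82% of clustered and 10.3% of other windows, and the Scalloped motif in 4.06% and 3.56%. The nuclear receptor motif, which is AGGTCA, stood in 1.85% of clustered and 1.87% of other windows. The motif shared by BEAF-32 and DREF, which is TATCGATA, was found in 0.812% of clustered and 1.44% of other windows. Among promoter windows alone the shares were close, 2.88% of clustered and 3.15% of other windows. All 11 clustered windows with it were at promoters, and 0 of the 972 clustered windows away from promoters held it, against 3 of 2961 other windows there. The E-box searched, which is CACGTG, stood in 0.960% of clustered and 0.795% of other windows. The AP-1 motif, here TGACTCA, stood in 0.665% of clustered and 1.04% of other windows. The Zelda motif, here CAGGTAG, stood in 0.517% and 0.360%. A match is a run of letters, not a measured binding site, and a window with several motifs was counted for each.

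Clusters differed widely in size. The median cluster held 4 sites and spanned 4173.5 bp between its first and last summits, with spans up to 25939 bp. Of the 332 clusters, 209 held 4 or more sites, and these contained 1134 of the 1354 clustered peaks. A further 72 held 2 or 3 sites and 51 held a single peak, whose neighbours lay within 5000 bp but did not themselves reach 3 other sites. Neighbouring sites within a cluster were a median of 1163 bp apart, with the middle 50% between 697 and 2044 bp. The plot of span against number of sites shows that clusters of the same number of sites could be compact or stretched. Among the 23 clusters with at least 8 sites, the median span was 12641 bp.

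**Figure D1:**
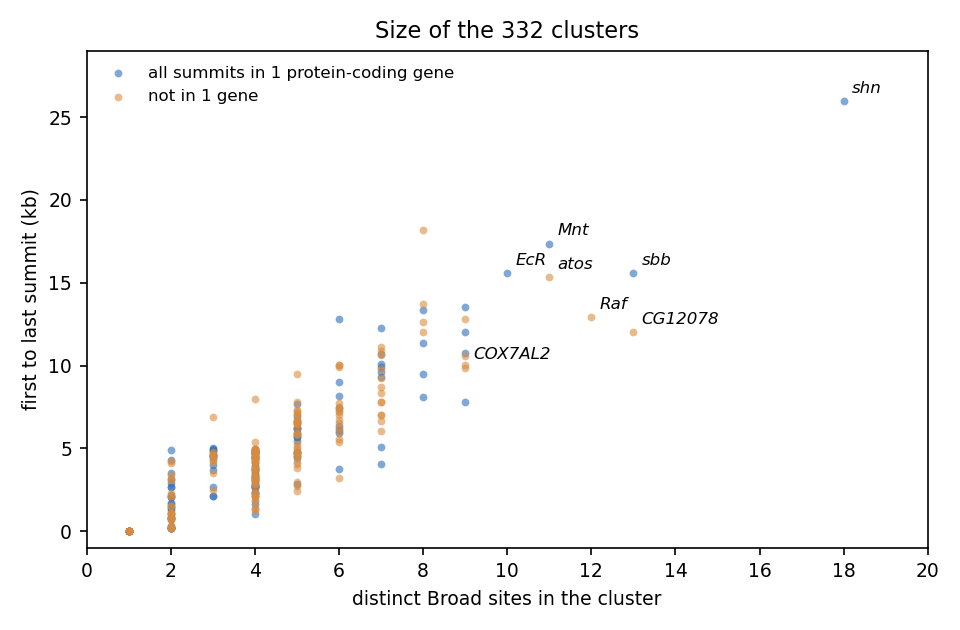
Number of distinct Broad sites in each of the 332 clusters (x axis) against the distance from its first to its last summit in kb (y axis), 1 point per cluster. Blue points are clusters whose summits all lie in 1 protein-coding gene and orange points the others; the shn cluster stands apart with 18 sites over 25939 bp, and the 8 clusters with the most sites are labelled with a gene.

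Some neighbouring sites were very close. Of the clustered peaks, 319 (23.6%) had another summit 200 to 249 bp away, against 441 (8.35%) of other peaks, a difference to which the rule itself contributes because such a summit counts as a neighbour. Both replicates held a summit within 100 bp for 85.0% of those 319 peaks and for 94.4% of the other 1035 clustered peaks. The chromatin fragments measured 200 to 800 bp, and whether the closer pairs are separate binding sites was not tested. Site counts of the clusters below include such pairs as separate sites. When summits closer than 400 bp counted once, 1008 peaks in 256 clusters met the rule.

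The share of summits at promoters was lower, and that in introns higher, among clustered peaks than among other peaks. A summit within 500 bp of a start site of a protein-coding gene was classed as promoter, which held for 28.2% of clustered peaks (382) and 43.9% of other peaks (2320). Introns held 49.0% of clustered peaks (663) and 37.1% of other peaks (1960). Intergenic sequence held 17.6% of clustered and 15.2% of other peaks. The median distance to the nearest start site was 1569.5 bp for clustered peaks and 808 bp for other peaks. Very remote summits, over 10 kb from any start site, were less common among clustered peaks (7.98%) than among other peaks (12.4%). Coding exons held 2 clustered and 15 other peaks. These are descriptions, since peaks of 1 list are not replicates.

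The share at promoters was lower at higher numbers of neighbours, with no step down between 0 and 1 or between 5 and more. It was 44.8% with no other site, 44.9% with 1, 41.2% with 2, 33.3% with exactly 3, 27.1% with 4, 16.7% with 5 and 16.8% with 6 or more. The share in introns was 34.7%, 37.0%, 40.8%, 46.2%, 49.6%, 50.6% and 62.6% over the same steps. Peaks just inside the threshold, with exactly 3 other sites (706), had a median signal of 143, and those just outside it, with exactly 2 (1369), had a median of 142. The count of neighbours reached 9 for 3 peaks. Applied to the 6635 strongest peaks of each replicate's own list, the rule gave a promoter share of 31.1% for clustered and 45.9% for other peaks in replicate 1, and of 29.1% and 43.4% in replicate 2. The replicate lists overlap with the pooled list, so they are not independent of it.

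**Figure D2:**
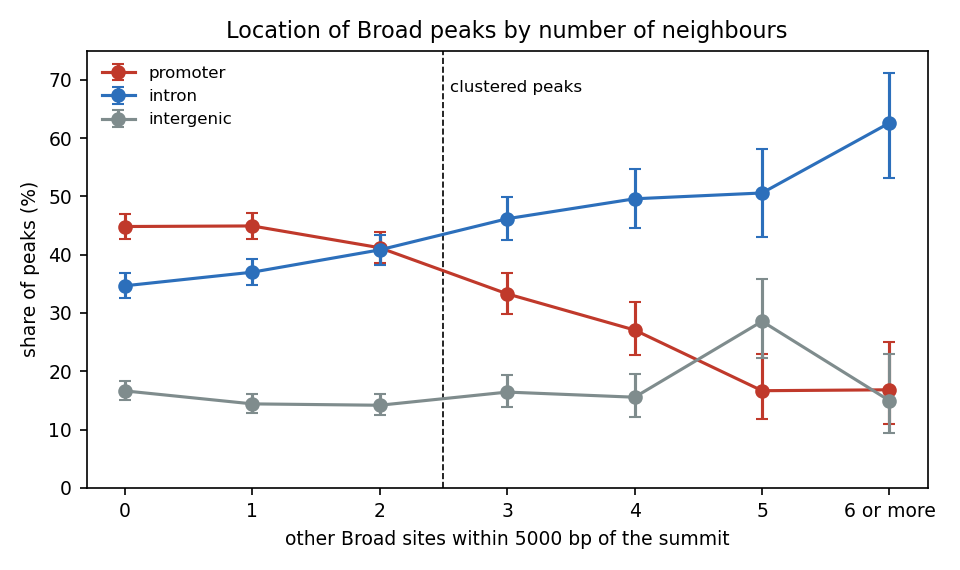
Share of Broad peaks in promoters, introns and intergenic sequence (y axis, %) by the number of other sites within 5000 bp of the summit (x axis), with 95% Wilson intervals that cover counting error only; peaks right of the dashed line are clustered. The promoter share is 44.8% at 0 neighbours and 16.8% at 6 or more, while the intron share is 34.7% and 62.6%.

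Exons that lie outside promoters and belong to no coding transcript part, mostly exons of long noncoding RNAs, held 3.47% of clustered peaks (47) and 1.89% of other peaks (100). Among the 47 were some of the strongest clustered peaks, which are described with their loci. Of all 147 peaks in this class, 32.0% were clustered, against 25.3% of intronic, 22.9% of intergenic and 14.1% of promoter peaks.

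The signal of each peak is the authors' own value on an unstated scale, used here to describe and rank peaks. It had already set the list, since the reproducible set was exactly the strongest part of the pooled list, so levels are a description only. The median signal was 149 for clustered peaks (middle 50% 106 to 232) and 135 for other peaks (101 to 218), a ratio of 1.10. In replicate 1 the matched medians were 76.3 for clustered and 71.2 for other peaks, and in replicate 2 they were 75.1 and 69.0. The ranges of clustered and other peaks overlapped almost entirely, from 80.0 to 3635 and from 80.0 to 3021. At promoters the medians were 149 for clustered and 144 for other peaks. In introns they were 149 and 130, and in intergenic sequence 156 and 126. In 3 smaller classes the order was the other way, with 123 and 129 in other exons, 115 and 127 in 5′ untranslated regions and 122 and 129 in 3′ untranslated regions. A signal of 500 or more was reached by 7.31% of clustered peaks (99) and 5.79% of other peaks (306), and 25 of the 100 strongest peaks of the set were clustered. Within a cluster signals were uneven: in the 209 clusters of 4 or more sites the strongest peak held a median of 36.6% of the summed signal (range 15.7% to 78.5%).

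The replicates held most clustered peaks. A summit within 100 bp was found in both replicate lists for 92.2% of clustered peaks (1248) and 93.4% of other peaks (4933). Those lists held 30000 peaks each, and among the 6635 strongest of each the shares were 72.5% (982) and 71.8% (3791). The log2 ratio of replicate 2 to replicate 1 had a median of -0.01 at clustered peaks and -0.02 at other peaks, with an SD of 0.58 over clustered and 0.51 over other peaks. Spearman's rho between replicates, across peaks that share a library and are not independent, was 0.779 over clustered and 0.787 over other peaks. The plot of the replicates shows the widest scatter at low signals. In 168 of the 209 clusters of 4 or more sites (80.4%), the same peak was the strongest in both replicates. The rule applied to each replicate's own list gave 1381 peaks in 335 clusters for replicate 1 and 1386 peaks in 334 clusters for replicate 2. Those clusters overlapped 234 of the 332 clusters in replicate 1 and 231 in replicate 2, and 172 and 174 of the 209 larger ones. Of the clustered peaks themselves, 68.8% were found again as clustered in replicate 1 and 69.9% in replicate 2.

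**Figure D3:**
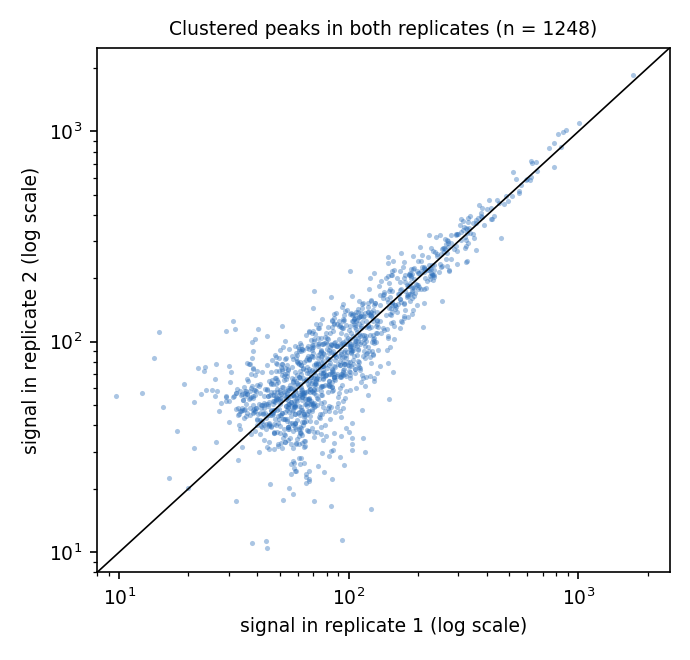
Signal of the 1248 clustered peaks that had a summit within 100 bp in both replicates, in replicate 1 (x axis) and replicate 2 (y axis), both on log scales in the authors' unit; the line marks equal values. Points lie along the line, with the widest scatter at low signals.

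The spans of the clusters also held weaker peaks that the rule did not use. The pooled list contains 23365 peaks below the reproducible set. In the 261 clusters spanning at least 1000 bp, which cover 1.05% of the chromosome arms, they numbered 646, or 0.449 per kb. Elsewhere on the arms they numbered 22719, or 0.167 per kb. That length takes in whole arms, Y included, while each span begins and ends at clustered peaks, so the densities describe unlike sequence. At least 1 such weak peak lay in 210 of the 261 spans (80.5%), with a median signal of 38.0 inside spans and 28.7 elsewhere. These weak peaks come from the same pooled libraries as the clustered ones.

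All major arms held clusters. Clustered peaks made up 24.2% of the peaks of arm 3L (350), 22.0% of X (251), 20.8% of 2L (254), 19.5% of 2R (243) and 16.3% of 3R (256). None of the 14 peaks of chromosome 4 was clustered, and chromosome Y had no peak in the set. Arm 3L held 83 of the clusters, 3R 73, X 61, 2L 60 and 2R 55.

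Some clusters sat inside single genes. In 154 of the 332 clusters (46.4%) every summit lay in the body of the same protein-coding gene, but 34 of these were clusters of a single peak. Of the 209 clusters with 4 or more sites, 81 (38.8%) lay in 1 gene. In 124 clusters no peak was at a promoter, while 44 consisted of promoter peaks alone. For those of 4 or more sites the counts were 62 (29.7%) without a promoter peak and 12 (5.74%) of promoter peaks alone. Promoter peaks of 3 or more different genes occurred in 29 clusters. The cluster with the most genes, chr2L:2874825-2885936, had 7 promoter peaks of 7 genes, among them lilli and Prx6a, with signals up to 289. A further 36 clusters had no protein-coding gene by the rule used, which asks for a summit in the gene body or within 1000 bp of a start site.

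The largest cluster by sites and by span lay in shn, which encodes Schnurri, a zinc finger cofactor of the Dpp pathway. It held 18 sites over 25939 bp at chr2R:11181405-11207344, of which 17 were intronic and 1 lay at an internal promoter. Signals were 80.8 at the lowest, 146 at the median and 712 at the highest. The strongest had a signal of 332 in replicate 1 and 386 in replicate 2, and the next, 356, had 149 and 204. The promoter peak, 26 bp from a start site, was among the weakest with 85.2. The shn cluster is thus a long row of modest peaks with 1 strong summit.

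A pair of clusters followed with 13 sites each, of which 1 lay in sbb and the other, described below, on arm 3L. The sbb gene encodes Scribbler, a transcriptional corepressor that also lowers tkv in the wing disc. It held 20 clustered sites in 3 clusters. The main one, chr2R:18330473-18346031, had 13 sites, all in introns and at least 11265 bp from the nearest start site. Its strongest peaks were 568 (296 in replicate 1, 271 in replicate 2), 548 (287 and 276) and 510 (259 and 266). No single peak dominated, and the strongest held 16.7% of the summed signal.

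The Raf cluster, chrX:2293734-2306641, combined many sites with high signal. Raf is the kinase that links Ras to the MAP kinase cascade. Its 12 peaks ran from the promoter of the neighbouring gene CG2865 (533, with 267 in replicate 1 and 263 in replicate 2) across the 5′ untranslated region and the first part of Raf. The strongest, in an intron 5248 bp from a start site, had 1299, with 658 in replicate 1 and 647 in replicate 2, and is 1 of the sequences printed above. Of the 12 peaks, 7 had a signal of 386 or more, and the lowest had 86.4. Its summed signal of 4898 was exceeded, among the 332 clusters, by the 5880 of cbt and ush.

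The cluster of cbt and ush, chr2L:480067-490765, encoding the zinc finger factor Cabut and the GATA cofactor U-shaped, held the strongest peak of the whole set, 3635, with 1730 in replicate 1 and 1852 in replicate 2. It lay in a ush intron 988 bp from a cbt promoter peak of 872, and 61.8% of the summed signal came from it.

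The gene of the ecdysone receptor, EcR, carried 10 clustered sites over 15562 bp at chr2R:6132167-6147729. One lay at a promoter, with a signal of 161 (92.3 in replicate 1 and 70.1 in replicate 2), and 9 in introns. The strongest had 291, with 136 and 149, and the last in the row 228, with 88.3 and 138. For most of the intronic peaks, the strongest among them, the nearest start site was that of CG14589, not of EcR. Signals at EcR were even, and the strongest held 17.8% of the sum. For 2 of the 10 peaks, with signals of 82.7 and 122, a summit was found in 1 replicate only. Such peaks occurred in other named clusters too. At shn and at Mnt, 1 peak lacked a summit in replicate 1 and 1 in replicate 2. In replicate 1, 2 peaks at ush and 1 at Raf lacked a summit.

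**Figure D4:**
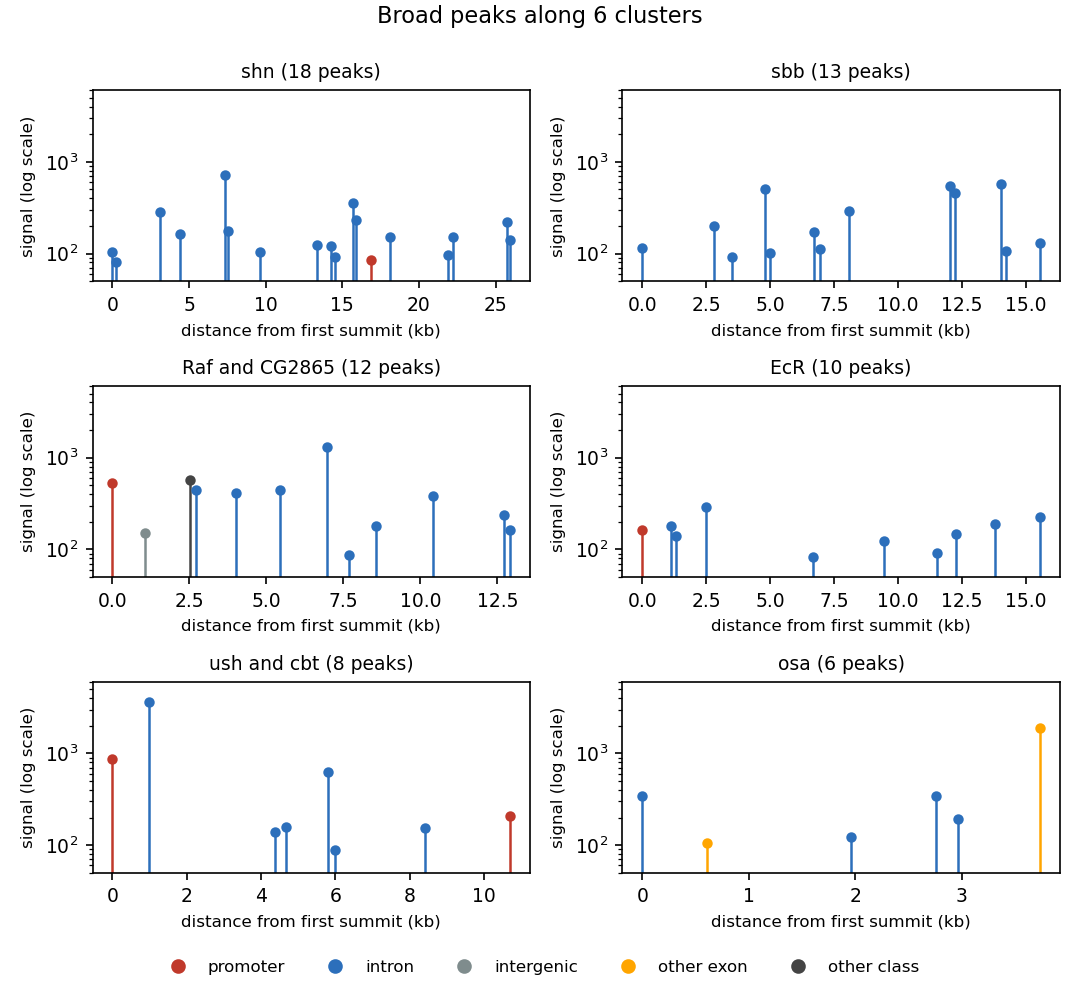
Broad peaks along 6 named clusters; each stem is 1 clustered peak at its distance in kb from the first summit (x axis) with its signal in the authors' unit on a log scale (y axis), coloured by location. The clusters of shn, sbb and EcR are rows of mostly intronic peaks, the strongest of which have 712, 568 and 291. Those of ush with cbt and of osa each contain 1 peak far above the rest, 3635 and 1904.

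Rtnl1, which encodes a reticulon of the endoplasmic reticulum, had a cluster of another make-up. Of its 9 peaks over 12031 bp, chr2L:4997659-5009690, 7 lay at promoters of Rtnl1 itself, which has many start sites, and 2 in introns. The strongest had 926, with 472 in replicate 1 and 452 in replicate 2, and the others lay between 93.2 and 473. Mnt, whose product opposes Myc as a partner of Max, held 11 sites over 17360 bp, chrX:3677969-3695329, with 10 in introns. Its strongest peak had 388, with 184 in replicate 1 and 207 in replicate 2. The cluster of atos and CG9003, chr2R:11626707-11642048, also held 11 sites, none above 229. Its promoter peak of 118 lay 2 bp from an atos start site.

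The Polycomb group gene ph-p shared a cluster with D2hgdh, chrX:2134426-2141928. Its strongest peak, 458 bp from a ph-p start site, had 1788, with 853 in replicate 1 and 997 in replicate 2. The other 5 lay between 81.5 and 546. At osa, which encodes a subunit of the SWI/SNF chromatin remodelling complex, 6 sites stood within 3734 bp inside the gene, chr3R:17700661-17704395. The strongest there had 1904, with 887 in replicate 1 and 1013 in replicate 2, and lay in an exon of lncRNA:CR46035, a noncoding RNA annotated within the osa body. The other 5 peaks at osa lay between 105 and 346, and 2 of them had no summit within 100 bp in replicate 2. Near CenG1A, mRpS23 and CG33307, chr2L:13835458-13840101, 1 promoter peak of 1785 (817 in replicate 1, 968 in replicate 2) stood with 3 weaker ones, the highest of which had 379.

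A cluster of 13 sites at chr3L:3239884-3251918 lay across the small genes CG17746, CG12078 and CG43389. Its strongest peaks were 1202 at the promoter of CG43389 (623 in replicate 1, 608 in replicate 2) and 854 in a 3′ untranslated region (370 and 447). It also had 325 in an exon of lncRNA:CR45424. The last peak, 112 in an exon of lncRNA:CR43626, had no summit within 100 bp in either replicate list. Around a start site of COX7AL2 and towards CG31668, 9 sites at chr2L:2193626-2203505 included 6 in intergenic sequence. The strongest, 3750 bp from a CG31668 start site, had 1571, with 745 in replicate 1 and 831 in replicate 2. The next, 1475 bp from a COX7AL2 start site, had 730, with 357 and 379.

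Some of the strongest clusters had no protein-coding gene. Between CG4004 and Paics, a cluster of 5 sites within 4078 bp, chrX:12751425-12755503, had a summed signal of 4348. Its peaks were 1341 in an exon of lncRNA:Vinr (622 in replicate 1, 720 in replicate 2), 1673 in an exon of lncRNA:CR44619 (841 and 843), 597 in another exon of that RNA (299 and 325), and 495 and 243 in intergenic sequence. The nearest protein-coding start sites were those of CG4004, 5108 bp to the left of the first summit, and Paics, 5114 bp to the right of the last. Between Cyt-c1L and eEF1gamma, chr3R:29207509-29215278, a single peak of 2102 (1008 in replicate 1 and 1095 in replicate 2) held 75.7% of the summed signal of 6 sites. The other 5 lay between 99.4 and 170.2.

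A pair of 9-site clusters lay at the start of heca and before it. The gene encodes Headcase, a protein of imaginal cells. The one without a gene, chr3R:30255590-30265615, had 9 intergenic peaks between 80.2 and 535, the last of them 12317 bp from a heca start site. The other, chr3R:30272706-30285533, began 5226 bp from a start site with a peak of 553 (264 in replicate 1, 291 in replicate 2) and went on into heca introns. Between Ids and sty, the gene of the receptor tyrosine kinase antagonist Sprouty, 9 intergenic peaks at chr3L:3388882-3399446 had signals of 112 to 371. The strongest of these had 148 in replicate 1 and 254 in replicate 2.

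Other clusters without a gene lay beside known regulators, here chosen after their values were seen. A cluster of 5 sites with a top signal of 625 lay 5037 bp from hid, a gene of programmed cell death. Clusters of 4 and 6 sites flanked hry, the gene of the repressor Hairy, 3035 and 16716 bp away, with top signals of 235 and 414. Others were nearest to dally (2 sites, 2329 bp, top 116), noc (2 sites, 9811 bp, top 327), ovo (4 sites, 21355 bp, top 189) and corto (7 sites, 19236 bp, top 227). Distances run from the cluster to the nearest start site of that gene, and no link between cluster and gene was measured.

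Of 13968 protein-coding genes, 514 (3.68%) had a clustered peak in their body or within 1000 bp of it, and 4291 (30.7%) had any peak of the set. A summit in overlapping or neighbouring genes was counted for each. Genes with a clustered peak were long, with a median of 6402.5 bp, against 3678 bp for genes with peaks but none clustered and 2164.5 bp for all protein-coding genes. The share with a clustered peak was 1.62% for genes under 2000 bp, 3.49% from 2000 to 10000 bp, 10.1% from 10000 to 20000 bp, 11.2% from 20000 to 50000 bp and 13.4% beyond. A single clustered site was found for 183 genes, 4 or more for 152, and 10 or more for 12 genes. Clusters in 2 or more places were found in 17 genes and in 3 or more in 4. Counts for gene lists have to be read against these lengths, since the lists differ in length from the genome as a whole, and no test of the lists was made.

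Genes of the ecdysone cascade had the highest share with clustered peaks of the 16 lists examined, 13 of 28, and 24 of 28 had any peak. The median length of these genes was 22406 bp, and of genes from 20000 to 50000 bp 11.2% had a clustered peak. Lists and members were chosen with earlier results of these data known, so the order of the lists is a description only. Among the 13, cbt, Blimp-1 and E23 had 1 clustered site each. Eip75B, an early gene that encodes a haem-binding nuclear receptor, had 21 clustered sites in 4 clusters. Its strongest peak had 1656 (784 in replicate 1, 879 in replicate 2) and the median was 103. EcR followed with the 10 sites described above. Hr4, a nuclear receptor gene, had 6 clustered peaks between 108 and 990, all in introns, and the strongest had 515 in replicate 1 and 492 in replicate 2. vri, which encodes a bZIP repressor of the circadian clock, had 6 between 107 and 903. Among those chosen after their values were seen, Eip78C had 4 intronic peaks between 88.5 and 1144, all nearest to a start site of CG43218. Also chosen in this way, br itself had 6 between 104 and 246, of which 5 lay in its body and 1 lay 652 bp before it. The strongest of these was without a summit within 100 bp in replicate 1. The usp gene, which encodes the partner of EcR, had 3 clustered peaks of 223, 106 and 101, all at promoters of usp or of CG4313 beside it.

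**Figure D5:**
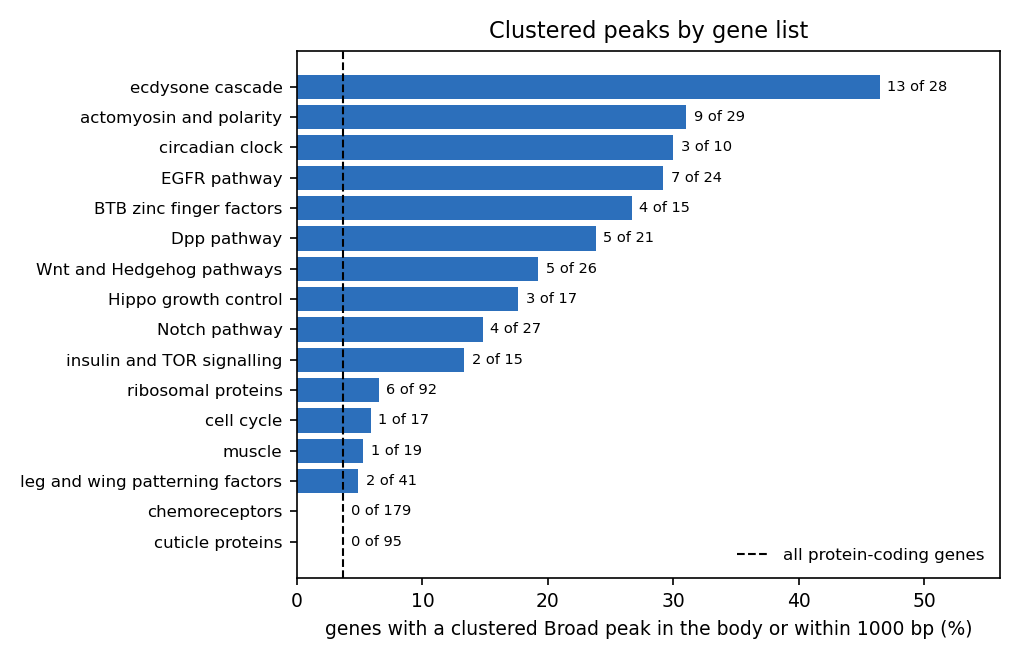
Share of genes in each of 16 lists with a clustered Broad peak in the body or within 1000 bp (x axis, %), with counts beside the bars; the dashed line is the share of all protein-coding genes, 3.68%. The ecdysone cascade is at the top with 13 of 28, and chemoreceptors and cuticle proteins are at 0. Lists differ in gene length and were chosen with earlier results of these data known.

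In the EGFR pathway 7 of 24 genes (29.2%) had clustered peaks, led by Raf with 11 sites, and 19 had any peak. The median length of these genes was 16501.5 bp, and of all genes from 10000 to 20000 bp 10.1% had a clustered peak. aop, which encodes the pathway's repressor Yan, had 8 in 2 clusters between 95.4 and 684, and the strongest had 309 in replicate 1 and 384 in replicate 2. spi, the gene of the EGF-like ligand Spitz, had 5 between 91.9 and 442. S, the gene of Star, which helps the ligand leave the endoplasmic reticulum, had 4 between 85.6 and 249. In the Dpp pathway, with a median length of 10458 bp, 5 of 21 genes (23.8%) had clustered peaks and 15 had any peak. After shn came tkv, the type I receptor, with 10 clustered sites between 80.4 and 585, and dlp, a glypican, with 4 between 115 and 463. The start site nearest to the tkv peak of 585 was that of Cyp4ac1. brk, the gene of the repressor Brinker, had 2 of 111 and 175, and Dad, an inhibitory Smad, 1 of 110.2. The 2 peaks near brk were the end of a 9-site cluster at chrX:7299502-7307301, which lies in an intron of the long gene CG1677 and ends 638 bp from a brk start site.

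Clustered peaks in the Wnt and Hedgehog pathways were found for 5 of 26 genes (19.2%), and 15 had any peak. Their median length was 10890 bp, and of all genes from 10000 to 20000 bp 10.1% had a clustered peak. The receptor gene fz2 had 6 between 90.0 and 280.0, the co-receptor gene arr 4 up to 388, and the inhibitor genes nkd and Notum 4 each up to 208 and 169. ptc, the Hedgehog receptor gene, had 4 up to 197. The Notch list, with a median length of 2689 bp, had 4 of 27 (14.8%), and 19 of 27 had any peak. Of all genes from 2000 to 10000 bp 3.49% had a clustered peak. mam, the gene of the co-activator Mastermind, had 8 clustered sites, none above 182, fng, the glycosyltransferase gene, had 2 of 481 and 107, and E(spl)m2-BFM and E(spl)malpha-BFM had 1 each, of 220 and 88.3. Of Hippo growth control 3 of 17 genes (17.6%) had clustered peaks and 14 had any peak, with a median length of 16995 bp. Diap1, an inhibitor of apoptosis, had 4 between 81.5 and 785. wts, the Warts kinase gene, had 4 between 83.3 and 207, and ft, the gene of the cadherin Fat, 1 of 178.

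Of 29 genes of actomyosin and cell polarity 9 (31.0%) had clustered peaks and 25 had any peak. Their median length was 19464 bp, and of all genes from 10000 to 20000 bp 10.1% had a clustered peak. Among the 9 were the spectraplakin gene shot (5 sites, up to 314) and mbc (4, up to 268). The formin gene dia (4, up to 176) and the profilin gene chic (4, up to 167) were others. The chic peak of 167 had no summit within 100 bp in replicate 2. Of 15 BTB zinc finger genes 4 (26.7%) had clustered peaks, and 14 had any peak. psq had 9 sites in 2 clusters up to 229, Trl, which encodes GAGA factor, 6 between 131 and 959, br 6, and lola 4 between 86.8 and 568. The lola peak of 568 had no summit within 100 bp in replicate 2. The strongest at Trl had 485 in replicate 1 and 494 in replicate 2. The median length of this list was 50403 bp, and of all genes beyond 50000 bp 13.4% had a clustered peak. For the circadian clock, with a median length of 12433 bp, the count was 3 of 10 (30%), and 6 had any peak. vri was among the 3, with cwo at 2 peaks up to 211 and Pdp1 at 1 of 91.3. For insulin and TOR signalling, with a median length of 7568 bp, the count was 2 of 15 (13.3%), and 10 had any peak. Of all genes from 2000 to 10000 bp 3.49% had a clustered peak. InR had 5 sites up to 210.3 and foxo 1 of 149.6.

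Among the other lists the shares lay nearer to the 3.68% of all protein-coding genes, or at 0. Against genes of like length they lay on either side. Of genes under 2000 bp 1.62% had a clustered peak, and of those from 2000 to 10000 bp 3.49%. From 10000 to 20000 bp it was 10.1%. Median lengths were 12829 bp for leg and wing patterning, 12453 bp for muscle and 3975 bp for cell cycle. Chemoreceptors had 1691 bp and cuticle proteins 1088 bp. Of transcription factors of leg and wing patterning 2 of 41 (4.88%) had clustered peaks, and 22 of 41 had a peak of the set. These were bowl, with 8 sites up to 184, and net, with 2 up to 136. Of cell cycle genes 1 of 17 (5.88%) had any, the Tribbles gene trbl, and of muscle genes 1 of 19 (5.26%), Actn, whose strongest clustered peak is the one at the usp promoter. Ribosomal protein genes, which are short (median 1315 bp), had clustered peaks in 6 of 92 (6.52%) and any peak in 67 of 92. Among them, RpS14a and RpS14b lie side by side and share a peak of 194. None of 179 chemoreceptor and none of 95 cuticle protein genes had a clustered peak, and 6 genes of each list had any peak of the set.

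Outside the lists, the genes with the most clustered sites were sbb, CG1677 with 17 sites in 3 clusters, Mnt, and then brat, crp, Mur2B and atos with 10 each. brat, which encodes a translational repressor and growth inhibitor, had peaks between 105 and 460 in 2 clusters, and crp, the gene of the bHLH factor Cropped, between 82.8 and 388 in 2 clusters. The body of Mur2B overlaps br, and 6 of its 10 sites are those of br. Chosen after their values were seen, the neighbouring genes HmgD and HmgZ, which encode high mobility group proteins, shared a clustered peak of 1178 with 520.0 in replicate 1 and 644 in replicate 2. puc, the gene of a phosphatase that limits JNK signalling, had 7 sites between 89.9 and 581. CHES-1-like, a forkhead gene, had 7 between 124 and 573, of which 3 were promoter peaks, and Sin3A, the gene of a corepressor, had 7 between 90.6 and 453.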

How the data were processed

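The authors deposited, for each of 2 biological replicates and for both pooled, a list of 30000 peaks that fed the analysis of irreproducible discovery rate (IDR), and the optimal set of 6635 dm6 peaks which came out of it, per the README deposited with the samples. Peaks were called against a control alignment, which is not analysed here. The IDR cutoff, the aligner and the peak caller with its settings are not stated in labels or README. The signal value of each peak is as the authors deposited it, on an unstated scale, so pooled and replicate levels were not compared with each other. The −log10 q value column, also deposited, was only inspected. Chromatin was sonicated, per the labels.

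From the lists, summits (start plus offset) closer than 200 bp were chained into 1 site at the strongest summit, members were found and chained as the report gives, and the membership was checked on simulated data, where 20 of 20 sets matched a direct count. A replicate's value for a single peak is its strongest summit within 100 bp. For the matched medians of clustered and other peaks, the correlations, the log ratios and the plot of the replicates, the nearest was used. Genes came from Ensembl release 115 (BDGP6, version 54) and bases from the RefSeq genome of the same assembly. Classes were assigned with promoters first, then exons by kind (5′ untranslated, coding, 3′ untranslated, other), then introns, and the rest as intergenic. Named clusters are the 12 with the most sites, the 6 with the highest summed signal and the 6 with the highest peak, 18 in all; for each list up to 4 genes with the most clustered sites are named, or all where fewer than 6 have any. The members and lists were chosen with earlier results of these data known. Of the list symbols 6 were matched through RefSeq synonyms, and 3 without a match are not analysed here. Alternatives covered the radius, the number of neighbours, the counting of close summits, stronger peaks, each replicate's list, the dm3 set, the promoter width, the merging distance and the gene rule. Python 3.11.15, pandas 2.3.3, numpy 2.4.6, scipy 1.17.1 and matplotlib 3.10.9 were used.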

Additional observations from a re-analysis of the deposited data

How the results depend on the processing

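With 1 group and no test, the results are values that moved or did not under other settings. A radius of 2500 bp gave 418 clustered peaks (6.30%) in 152 clusters with a median span of 1306.5 bp, a signal ratio of 1.12, a promoter share of 22.0% and 66.4% of clusters in 1 gene. With 10000 bp these were 2893 (43.6%), 907, 2028 bp, 1.06 and 34.7%. Needing 2 other sites gave 2723 (41.0%), 723, 3752 bp and 34.7% at promoters, and needing 4 gave 648 (9.77%), 165, 3528 bp, 1.15, 22.7% and 52.1% in 1 gene. Counting summits closer than 400 bp once gave a share of 15.2%, 4255 bp, 1.08 and 24.0%. Using peaks above the median signal gave 288 (8.68%), 81, 3506 bp and 1.05. The dm3 set gave 22.5%, 4402.5 bp and 1.08. Over both replicates' own lists, without replicate 1 or without replicate 2, the span ranged from 4034 to 4098.5 bp, the signal ratio from 1.08 to 1.08 and the promoter share from 29.1% to 31.1%. A promoter of 250 bp or 1000 bp gave 21.3% and 39.0%. Merging within 2500 bp gave 1074 bp and 58.1% in 1 gene, and gene bodies with 1000 bp to either side gave 66.9%. The causes were not tested. No paired analysis was possible because there is a single group. Depth is unknown, so no limit of detection could be given.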
